A study of Mus musculus with 8 samples.

Results

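The 84 genes described here encode the cytosolic ribosomal proteins of the mouse. They were chosen by name: protein-coding symbols of the form Rpl or Rps with a number and, in some, a suffix (a, x, l, al or l1), together with Rplp0, Rplp1, Rplp2 and Rpsa. They were 84 of 21643 gene symbols in the count table and held 96 of its 28157 rows, and for each gene the row with the most counts over all libraries was used. By role, 43 encode proteins of the large subunit, 30 proteins of the small subunit, 3 the proteins of the stalk, and 8 are paralogs. Rps3a1, Fau and Rps27rt do not match the name rule and are not members.

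A ribosome pairs a small subunit, which reads the message, with a large subunit, which joins amino acids, and each subunit is built on ribosomal RNA from many proteins needed in equal amounts. The messages of vertebrate ribosomal proteins typically begin with a C followed by a run of pyrimidines, the 5′ terminal oligopyrimidine tract. Through that tract their loading onto polyribosomes depends on the kinase mTOR. Neurons keep ribosomes and some of these messages in their processes as well as in the cell body.

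Polyribosome-associated mRNA was sequenced from brain tissue of C57Bl6 mice aged 7 to 9 weeks, per the labels. The groups were mice at 6 h or 1 h after contextual fear conditioning, in which a chamber is paired with a foot shock, and control mice at 6 h or 1 h that saw the context alone. Libraries labelled hippocampus and frontal cortex were made for each, so that 8 libraries cover 8 combinations without a replicate. How many mice went into a library is not stated in what was used here, and the design text and extraction protocol name the prefrontal cortex alone. Total RNA was not analysed here, so a difference can be one of message amount or of polyribosome association. In bulk tissue, fewer cells of a type and less RNA per cell cannot be told apart.

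The libraries held 2370973 to 5296986 counts. The 2 conditioned 1 h libraries, labelled hippocampus and cortex, differed by no more than sampling noise: the variance of their counts was 1.062 times that of sampling over 12445 genes, against 4.427 times for the next closest pair of libraries, and they were summed and counted as 1 sample, which leaves 4 samples at 6 h and 3 at 1 h. The hippocampus control 6 h library stood apart, with Kif5c, a neuronal kinesin, at 108040 CPM, the count scaled to a common library size, against 356 to 5485 CPM in the other samples. Summed CPM of 7 hippocampal neuron markers were 693 and 986 in the hippocampus samples at 6 h and 543 in the hippocampus control 1 h sample, against 159 and 184 in the cortex samples at 6 h and 225 in the cortex control 1 h sample. The 7 cortical excitatory neuron markers summed to 235 to 551 CPM in hippocampus samples and 1139 to 1604 CPM in cortex samples. The conditioned 1 h pair lay between the tissues on both lists, at 414 and 793 CPM. CPM are computed with trimmed-mean (TMM) library factors throughout.

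The starts of 8 messages are shown because the tract is the feature by which this gene family is known, and because 4 of them (Rplp2, Rps27, Rpl37a and Rps28) had the largest falls at 6 h among named members with a window in the table, and the other 4 (Rpl4, Rpl5, Rps6 and Rpl36al) were among the highest. Each line gives 30 bases of the sense strand, 10 before the annotated RefSeq start and 20 from it (GRCm38.p6), and capitals mark each C followed by 4 or more bases that are C or T.
Rplp2, chr7:141447641-141447670, plus strand: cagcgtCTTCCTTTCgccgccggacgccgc
Rps27, chr3:90213629-90213658, minus strand: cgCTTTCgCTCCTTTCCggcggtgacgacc
Rpl37a, chr1:72711250-72711279, plus strand: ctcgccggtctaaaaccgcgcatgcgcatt
Rps28, chr17:33824543-33824572, minus strand: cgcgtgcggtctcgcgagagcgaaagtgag
Rpl4, chr9:64173377-64173406, plus strand: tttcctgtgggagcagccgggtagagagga
Rpl5, chr5:107900518-107900547, plus strand: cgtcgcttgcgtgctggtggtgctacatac
Rps6, chr4:86857348-86857377, minus strand: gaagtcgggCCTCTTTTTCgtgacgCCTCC
Rpl36al, chr12:69184048-69184077, minus strand: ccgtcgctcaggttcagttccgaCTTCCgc

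The table of starts held 64 of the 84 members. Searched on the sense strand, an annotated first base that is a C followed by 4 or more bases that are C or T was found in 14 of the 64 (21.9%), against 813 of 27025 genes (3.01%), and a tract anywhere in the window in 44 of the 64 (68.8%), against 10698 of the 27025 (39.6%). No match says only that these letters are not in this window, and annotated starts can lie some bases from the ones used in brain. The median log2 change at 6 h against 1 h was −1.18 in the 13 tested members with a tract at the start and −0.98 in the 46 without it, as a description with no test. Among the messages shown, Rplp2 and Rps27 at the low end and Rps6 at the high end carried a tract at the start, and Rpl37a and Rps28 at the low end and Rpl4 and Rpl5 at the high end held none in the window.

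Ribosomal protein messages took a smaller share of the counts at 6 h than at 1 h in every library. The members held 0.234% of counts in the cortex conditioned 6 h library, 0.203% in cortex control 6 h, 0.207% in hippocampus conditioned 6 h and 0.129% in hippocampus control 6 h. At 1 h they held 0.326% in the cortex conditioned and 0.321% in the hippocampus conditioned library, 0.323% in cortex control and 0.504% in hippocampus control. The groups did not overlap. Hippocampus control was the lowest library at 6 h, with an exact 95% binomial interval of 0.125% to 0.134%, and the highest at 1 h, with an interval of 0.497% to 0.511%; intervals cover counting error alone. Its 6 h share was 0.141% with Kif5c left out. These shares rest on 3065 to 19830 member counts a library.

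**Figure D1:**
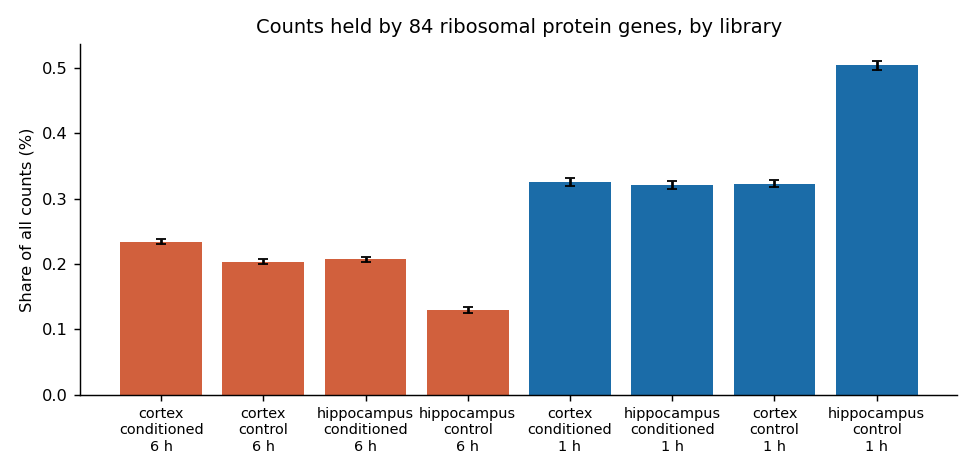
Share of all counts held by the 84 ribosomal protein genes (y axis, percent) in each of the 8 libraries, 6 h in orange and 1 h in blue; bars are the share and error bars its exact 95% binomial interval. The 6 h libraries lie at 0.129% to 0.234% and the 1 h libraries at 0.321% to 0.504%.

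Abundance differed widely among members. Scaled to coding length, Rpl41, whose 78-base coding sequence makes the smallest ribosomal protein, had the highest level at 1 h with 2749 CPM per coding kb, against a median of 71.7 CPM per coding kb over the tested members. Much of that value is the short reading frame: over its 437-base transcript Rpl41 stood at 490.7 CPM per transcript kb. Rps2, near the mRNA entry of the small subunit, was the lowest tested member with 3.87 CPM per coding kb at 1 h and 72 counts in all libraries together. Near-identical copies share reads in an unknown way (Rpl32 with Rpl32l, Rps27 with Rps27rt, Rpl36a with Rpl36al, and processed pseudogenes of many members), so levels of single members are uncertain to that extent.

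Of the 79 members with enough counts to be tested, 35 (44.3%) fell at 6 h against 1 h and 0 rose. Over all 15968 rows tested, 10.2% passed as lower and 15.9% as higher (edgeR quasi-likelihood test, Benjamini-Hochberg adjusted p under 0.05). At an unadjusted p under 0.05, 52 members were lower and 1, Rpl4, was higher. The median log2 change was −1.03 over the members and 0.01 over all rows, and 72 of the 79 members were negative, where 49.6% of all rows were. In 51 of the 79 members (64.6%) every 6 h sample lay below every 1 h sample, against 21.3% of all rows, and in 0 members did every 6 h sample lie above, against 24.8% of all rows. Each of the 35 members that fell was among the 51. The 5 members left untested, all with few or no counts, were Rps21 and the paralogs Rps27l, Rpl3l, Rpl10l and Rpl39l.

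These calls rest on few samples. The model held time alone, with tissue and training left in the spread. Without the cortex control 1 h sample, or without the conditioned 1 h pair, 0 members and 0 rows of the table passed in edgeR. The medians were still −1.20 and −1.15, and 53 of 80 and 48 of 79 members had an unadjusted p under 0.05. Without the pair but with tissue as a covariate, 16 of 79 members fell, where 1.87% of 16123 rows passed as lower. With time alone again, 13 members fell without the hippocampus control 1 h sample, and the median was −0.76. Leaving out a 6 h sample gave 26 to 43 members that fell, and the 43, with a median of −0.91, came from leaving out hippocampus control 6 h, the library that stood apart. The change also followed base composition and length, as described after the single genes.

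**Figure D2:**
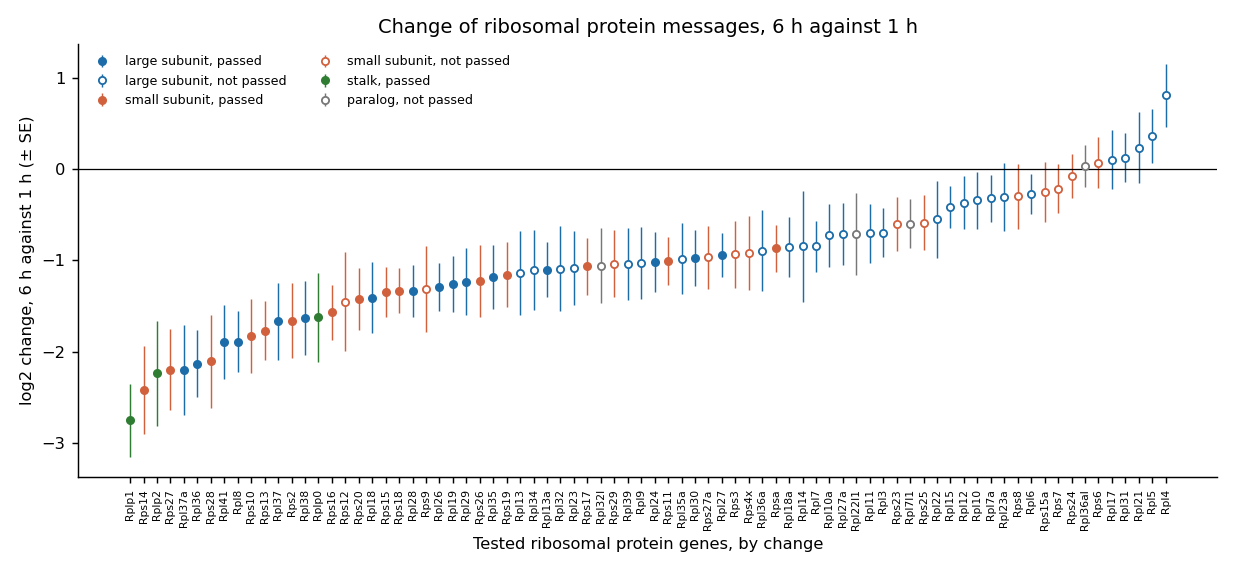
Log2 change of the tested members at 6 h against 1 h (y axis, points with ± SE), ordered along the x axis by change. Filled points passed the test and open points did not; colours mark the large subunit, the small subunit, the stalk and the paralogs. The changes run from −2.75 for Rplp1 to 0.81 for Rpl4, and all filled points lie below 0.

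The acidic proteins of the stalk, which recruit elongation factors to the ribosome, had the largest falls as a role: 3 of 3 passed, with a median log2 change of −2.24. In the sentences that follow, values at 6 h are given for cortex conditioned, cortex control, hippocampus conditioned and hippocampus control, and values at 1 h for the conditioned pair, cortex control and hippocampus control. Rplp1 had 10.7, 10.1, 4.14 and 3.98 CPM at 6 h, against 37.7, 45.4 and 69.2 CPM at 1 h. The groups were far apart, with means of 7.23 ± 3.67 CPM at 6 h (SD, n = 4) and 50.7 ± 16.4 CPM at 1 h (SD, n = 3), a log2 change of −2.75 (SE 0.40, edgeR adjusted p = 0.0138). Its partner in the stalk dimer, Rplp2, had 9.02, 6.08, 3.68 and 0 CPM at 6 h, against 21.4, 20.7 and 31.0 CPM at 1 h, a log2 change of −2.24 (SE 0.57, edgeR adjusted p = 0.0238). Rplp0, the base that anchors the dimers, had 17.5, 15.6, 11.7 and 1.71 CPM at 6 h, against 32.9, 31.1 and 48.5 CPM at 1 h, a log2 change of −1.62 (SE 0.49, edgeR adjusted p = 0.0380). In each of the 3 genes the hippocampus control sample was the lowest at 6 h and the highest at 1 h. Its 6 h values rest on 7 counts for Rplp1, 0 for Rplp2 and 3 for Rplp0, in the library with the fewest counts.

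Of the small subunit, 16 of 29 tested members fell, with a median log2 change of −1.16. Rps14, a protein of the subunit's platform, had 5.76, 8.93, 5.29 and 0.57 CPM at 6 h, against 21.4, 30.3 and 37.6 CPM at 1 h, a log2 change of −2.41 (SE 0.48, edgeR adjusted p = 0.0146). Rps27, a zinc-finger protein whose start carries the tract shown above, had 6.91, 5.89, 6.44 and 1.14 CPM at 6 h, against 18.6, 18.7 and 37.8 CPM at 1 h, a log2 change of −2.19 (SE 0.44, edgeR adjusted p = 0.0146). Neither gene's groups overlapped. In both the hippocampus control 6 h sample was below the other 6 h samples, on 1 count for Rps14 and 2 counts for Rps27.

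Rps28 had 4.22, 3.80, 0.69 and 1.71 CPM at 6 h, against 8.83, 9.59 and 17.6 CPM at 1 h, a log2 change of −2.10 (SE 0.50, edgeR adjusted p = 0.0206). Rps10, a protein of the subunit's head, had 12.3, 10.6, 5.06 and 2.85 CPM at 6 h, against 25.4, 31.1 and 29.9 CPM at 1 h, a log2 change of −1.83 (SE 0.40, edgeR adjusted p = 0.0166). The 6 h samples of both genes lay below their 1 h samples. Hippocampus control was the lowest for Rps10, on 5 counts. Rps28 had 3 counts in each hippocampus library at 6 h, so the order of those samples is not resolved.

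Rpsa, which binds the small subunit and is also known as the laminin receptor, changed less: 39.9, 33.4, 54.2 and 34.1 CPM at 6 h, against 62.3, 67.9 and 91.4 CPM at 1 h, a log2 change of −0.86 (SE 0.26, edgeR adjusted p = 0.0369). Rps27a, made as a fusion with ubiquitin, had 10.4, 11.02, 5.75 and 13.7 CPM at 6 h, against 14.1, 18.1 and 26.8 CPM at 1 h, and did not pass (log2 change −0.97, SE 0.34, edgeR adjusted p = 0.0614). Its highest 6 h sample lay just under its lowest 1 h sample.

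At the upper end of the small subunit stood Rps6 and Rps24, which did not pass. Rps6, the protein phosphorylated by S6 kinase downstream of mTOR, had 114.5, 99.4, 118.1 and 199.2 CPM at 6 h, against 108.0, 126.2 and 143.9 CPM at 1 h, a log2 change of 0.07 (SE 0.28, edgeR adjusted p = 0.858) whose sign was negative with upper-quartile factors. Rps24, mutated in some patients with Diamond-Blackfan anaemia, had 25.5, 24.9, 22.8 and 24.5 CPM at 6 h, against 25.4, 20.2 and 31.4 CPM at 1 h, a log2 change of −0.08 (SE 0.24, edgeR adjusted p = 0.823). The groups of both genes overlapped.

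Of the large subunit, 16 of 43 members fell, with a median log2 change of −0.98. Rpl37a, a zinc-binding protein, had 6.14, 8.17, 4.83 and 0.57 CPM at 6 h, against 17.8, 20.5 and 35.4 CPM at 1 h, a log2 change of −2.19 (SE 0.49, edgeR adjusted p = 0.0172). Rpl36 had 9.40, 11.2, 6.44 and 3.41 CPM at 6 h, against 29.1, 28.5 and 47.0 CPM at 1 h, a log2 change of −2.13 (SE 0.37, edgeR adjusted p = 0.0138). In both genes every 1 h sample stood above every 6 h sample.

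Rpl41 had 79.2, 67.3, 60.9 and 21.6 CPM at 6 h, against 159.3, 181.5 and 302.5 CPM at 1 h, a log2 change of −1.89 (SE 0.40, edgeR adjusted p = 0.0158). Rpl8, which lies near the peptidyl transferase centre, had 26.3, 40.1, 23.4 and 13.1 CPM at 6 h, against 79.5, 106.8 and 104.5 CPM at 1 h, a log2 change of −1.89 (SE 0.33, edgeR adjusted p = 0.0138). Rpl37 had 8.44, 8.93, 6.67 and 1.71 CPM at 6 h, against 17.8, 16.9 and 30.5 CPM at 1 h, a log2 change of −1.67 (SE 0.42, edgeR adjusted p = 0.0229). The level of Rpl41 in hippocampus control at 1 h was far above the other 1 h samples, while Rpl8 was about as high in cortex control.

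**Figure D3:**
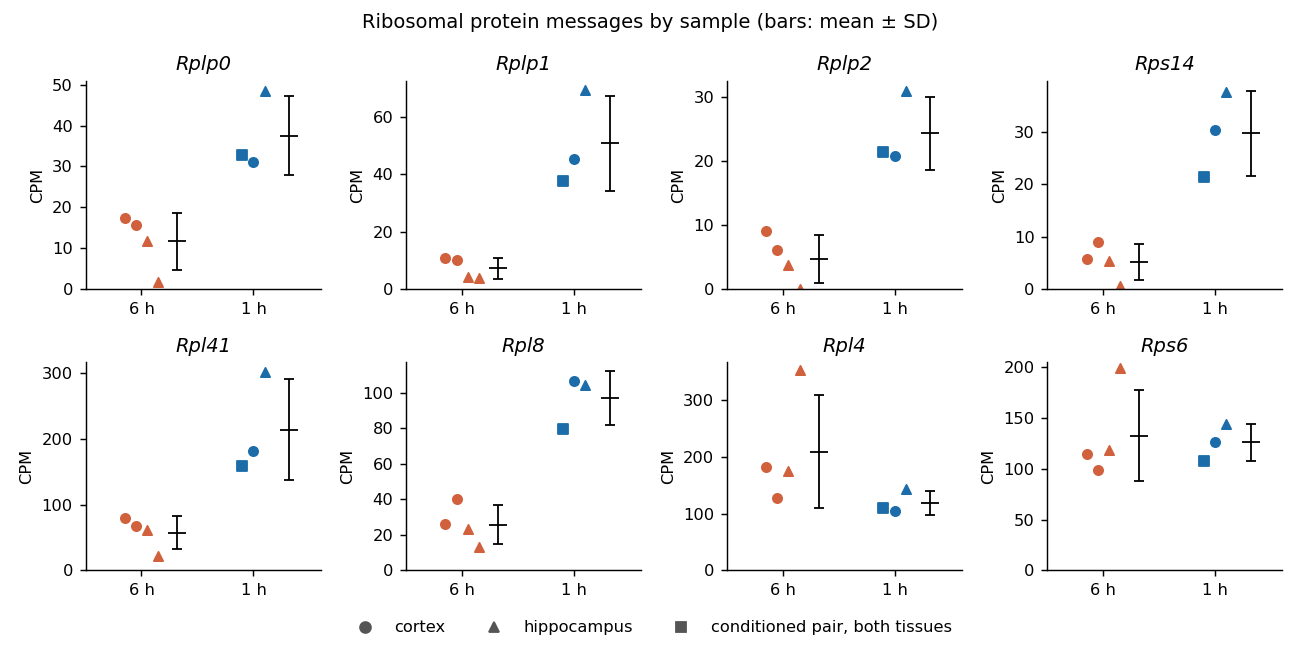
CPM of 8 members in each sample (y axes, linear, from 0), 6 h in orange and 1 h in blue, with circles for cortex, triangles for hippocampus and squares for the conditioned 1 h pair; bars give the mean ± SD. The 6 h and 1 h samples are separate for the stalk genes, Rps14, Rpl41 and Rpl8, whereas those of Rpl4 and Rps6 overlap.

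Several core proteins of the large subunit did not pass. Rpl3, close to the peptidyl transferase centre, had 75.2, 90.2, 88.9 and 46.7 CPM at 6 h, against 105.4, 123.9 and 138.8 CPM at 1 h (log2 change −0.70, SE 0.27, edgeR adjusted p = 0.0740). Its groups did not overlap, but the gap between them was smaller than the range within either. Rpl11 had 22.8, 26.6, 25.5 and 10.8 CPM at 6 h, against 29.9, 29.8 and 47.0 CPM at 1 h (log2 change −0.70, SE 0.33, edgeR adjusted p = 0.123). Rpl5, which joins Rpl11 and 5S RNA in the particle that also binds Mdm2, was on the other side of 0: it had 108.6, 80.6, 73.3 and 64.9 CPM at 6 h, against 51.4, 49.8 and 91.2 CPM at 1 h (log2 change 0.36, SE 0.29, edgeR adjusted p = 0.362). Rpl5 exceeded the conditioned pair and cortex control at 1 h in every 6 h sample, and hippocampus control at 1 h in 1 of 4.

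Rpl4, which lines the exit tunnel of the nascent chain, had the highest change of all members but did not pass. It had 182.4, 127.3, 174.7 and 354.0 CPM at 6 h, against 109.9, 105.0 and 143.6 CPM at 1 h (log2 change 0.81, SE 0.35, edgeR adjusted p = 0.102). Hippocampus control at 6 h, the sample with the lowest median CPM over the members (7.97, against 13.1 to 41.5 in the others), was the highest sample for Rpl4 and for Rps6. With all 8 libraries entered separately and tissue by training as a block, Rpl4 passed as higher (log2 change 0.75, edgeR adjusted p = 0.0197), a fit that counts the conditioned 1 h pair as 2 samples.

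Of the 8 paralogs, 4 were tested and 0 passed. Rpl36al had 67.3, 52.6, 61.4 and 64.3 CPM at 6 h, against 53.0, 50.6 and 76.4 CPM at 1 h, overlapping groups with a log2 change of 0.03 (SE 0.23, edgeR adjusted p = 0.924) that was negative with other library factors. Rpl36a, the X-linked gene it resembles, had 2.85 to 8.55 CPM at 6 h, against 6.04 to 15.4 CPM at 1 h (log2 change −0.89, SE 0.44, edgeR adjusted p = 0.146). The paralog thus stood above the parent gene in every sample, both having a coding length of 321 bases: per coding kb it had 191.3 CPM at 6 h and 186.9 CPM at 1 h, against 15.4 CPM at 6 h and 30.0 CPM at 1 h for Rpl36a.

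Rpl22l1 had 2.53 to 5.69 CPM at 6 h, against 2.85 to 9.23 CPM at 1 h (log2 change −0.71, edgeR adjusted p = 0.238). Rpl7l1, which takes part in the assembly of the large subunit, had 5.29 to 8.06 CPM at 6 h, against 9.59 to 12.1 CPM at 1 h (log2 change −0.60, edgeR adjusted p = 0.117). Rpl32l had 1.14 to 5.76 CPM at 6 h, against 6.48 to 12.1 CPM at 1 h (log2 change −1.06, edgeR adjusted p = 0.0758). The groups of Rpl7l1 and Rpl32l did not overlap and those of Rpl22l1 did. Rpl10l and Rpl39l, known from the testis, had 0 counts in every library. Rpl3l, known from heart and skeletal muscle, had 1 count in all, in cortex conditioned 6 h, and Rps27l had 0 to 19 counts a library.

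Members that fell tended to be richer in GC, as did rows that fell in the table as a whole. The Spearman correlation of the log2 change with transcript GC content was −0.57 over 79 members and −0.76 over 15598 rows with a value, and with transcript length 0.42 and 0.34. These are descriptions across genes measured in the same libraries. The members' median GC content was near that of all rows (50.9% and 50.3%), and their transcripts were shorter (median 791 and 3094.5 bases).

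**Figure D4:**
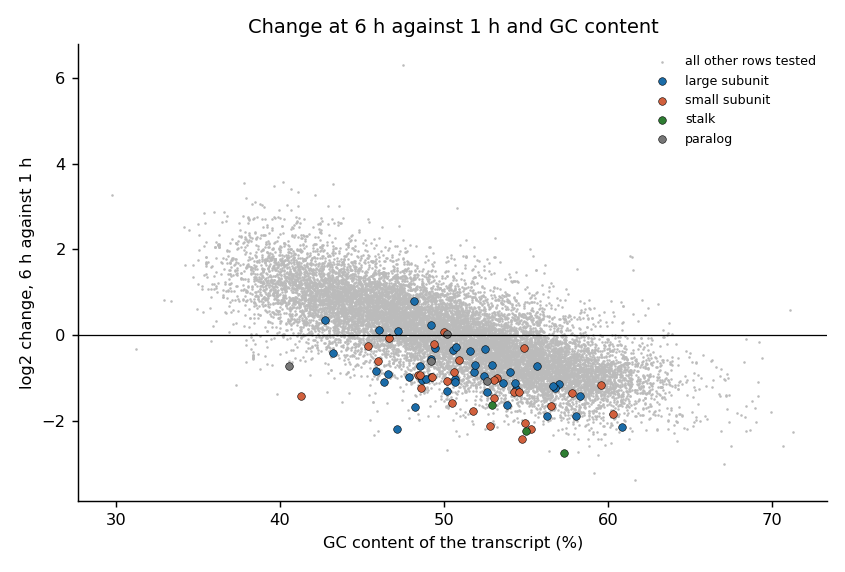
Log2 change at 6 h against 1 h (y axis) against GC content of the transcript in percent (x axis), with members coloured by role and all other tested rows in grey. Changes are lower at higher GC content among the grey points and among the members, whose median change is −1.03.

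With offsets for GC content and transcript length, fitted as smooth curves in each sample, the members' median log2 change was −0.50 and 2 of 79 passed as lower, where 0.173% of 15598 rows did. Rps20 was among them (log2 change −2.36, edgeR adjusted p = 0.0362). The stalk genes were at −1.44 for Rplp1, −1.42 for Rplp2 and −1.13 for Rplp0, with edgeR adjusted p of 0.0543, 0.0971 and 0.114. Annotated transcripts of some members are far longer than the message the gene is known for (3706 bases for Rps20, whose coding length is 360 bases), so offsets from coding GC content and coding length were added after the data had been seen. With these the median was −0.67 and 17 of 77 members fell, where 2.15% of 15334 rows did, and 13 of the 17 had also fallen without offsets. How much of the fall is tied to composition was not tested beyond these fits.

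**Figure D5:**
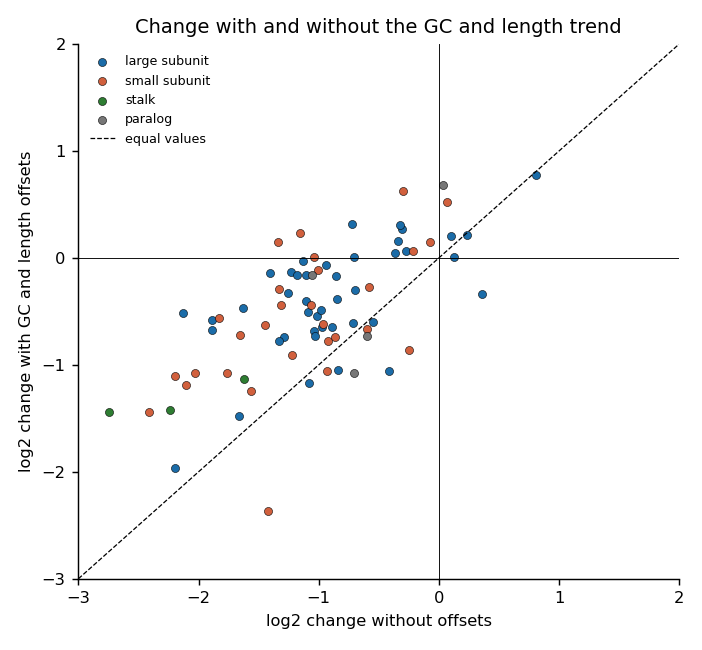
Log2 change of each tested member at 6 h against 1 h with offsets for GC content and transcript length (y axis) against the change without them (x axis), coloured by role; the dashed line marks equal values. Points above the line have a more positive change with offsets, and the members have a median of −0.50 with offsets and −1.03 without.

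Genes that work beside the ribosomal proteins moved in both directions, and their counts stand beside 10.2% of all rows lower and 15.9% higher, with a median of 0.01. Fau, which encodes a ribosomal protein fused to a ubiquitin-like protein, fell: it averaged 14.4 CPM at 6 h and 57.4 CPM at 1 h (log2 change −1.93, edgeR adjusted p = 0.0295). Of 6 elongation factors, 2 fell, Eef2 (−1.09) and Eef1d (−0.94), and 0 rose, with a list median of −0.86, although Eef1a1, which carries tRNA to the ribosome, was at 0.05. Among mitochondrial ribosomal proteins, 18 of 78 genes fell and 2 rose, with a median of −0.60, beside the same 10.2% lower and 15.9% higher over all rows. Rack1, a scaffold on the small subunit, fell (−1.82, edgeR adjusted p = 0.0138). A further list held 9 tested messages that encode no ribosomal protein but are known for the pyrimidine tract. Of these, Rack1 was the 1 that fell, and 3 rose: Npm1 (2.62), Nap1l1 (1.00) and Pabpc1 (0.82). The list is not complete: elongation and initiation factors were kept in lists of their own, whether or not they carry the tract.

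The other lists held genes called in both directions, and are again set beside 10.2% of all rows lower and 15.9% higher. Of 22 initiation factors, 4 fell and 6 rose, with a median of −0.02. Those that fell included Eif6 (−1.79), which keeps the subunits apart, and Eif3k (−1.52), while Eif2s2 (2.13), Eif3a (1.704) and Eif2s1 (1.57) were among those that rose. Of 20 ribosome assembly genes, 5 fell and 5 rose: Nop10 (−1.57), Nhp2 (−1.32), Fbl (−1.17), Bop1 (−1.14) and Bysl (−0.77) were lower at 6 h, and Nop58 (2.01), Dkc1 (1.96), Ncl (1.91), Nop56 (1.86) and Tsr1 (0.98) were higher. Dkc1, Nop10 and Nhp2 are partners in 1 particle, which guides pseudouridylation: the call was higher for Dkc1 and lower for Nop10 and Nhp2. Of 10 RNA polymerase I genes, 1 fell (Polr1c, −1.45) and 1 rose (Taf1d, 3.05). Of 9 genes of mTOR control, 2 fell, Eif4ebp2 (−1.05) and Rptor (−0.77), and 1 rose, the S6 kinase gene Rps6kb1 (1.94). For both of these short lists the counts are too few to read against the shares over all rows. All of these values are log2 changes at 6 h against 1 h.

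Among the lists of cell type markers, that of astrocytes alone separated the 6 h samples from the 1 h samples. The 6 astrocyte markers summed to 1144.5 to 1566.3 CPM at 6 h, against 777.2 to 962.4 CPM at 1 h, without overlap. Of all single rows tested, 24.8% had every 6 h sample above every 1 h sample. Red-cell markers, 3 of 4 measured, summed to 6.83 to 44.3 CPM at 6 h, against 44.2 to 60.8 CPM at 1 h, and overlapped slightly. Oligodendrocyte markers (562.9 to 1080.5 CPM at 6 h, against 674.1 to 1139.6 CPM at 1 h) and microglial markers (31.5 to 48.0 CPM at 6 h, against 39.1 to 48.8 CPM at 1 h) overlapped. Choroid plexus markers (3.64 to 76.8 CPM at 6 h, against 5.44 to 54.9 CPM at 1 h) and striatal neuron markers (13.1 to 263.1 CPM at 6 h, against 61.3 to 330.5 CPM at 1 h) overlapped as well. Endothelial markers were near 0, at 3.61 to 7.12 CPM at 6 h and 2.85 to 5.69 CPM at 1 h, with Flt1, Pecam1 and Cldn5 at 0 in at least 1 sample. The part of cell makeup in the ribosomal protein result was not tested.

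Within a tissue, the control libraries gave the same direction with sizes that differed. In hippocampus, the median log2 ratio of control 6 h over control 1 h was −2.07 and 76 of 80 members were lower, where 51.0% of rows were. The hippocampus control 6 h library in this ratio is the one that stood apart and has the fewest counts. In cortex the median was −0.63 and 65 of 79 members were lower, where 49.5% of rows were. These are ratios of single libraries and have no test. The difference in the time change between the tissues was fitted without the conditioned 1 h pair, so each tissue had 1 sample at 1 h. The spread came from the 6 h samples alone, with the 1 h samples assumed to vary like them. In each tissue those 6 h samples were 1 conditioned and 1 control sample, so that spread includes any difference of training. The 1 h samples were controls only, so training was not balanced over time. In that fit 0 of 81 members and 0 of 16824 rows passed (edgeR), with 10 members and 272 rows at an unadjusted p under 0.05. DESeq2 and limma-voom also called 0 rows, with 4 and 10 members at an unadjusted p under 0.05. The median of this difference was −1.21 over members and 0.05 over all rows, and 77 of 81 members were negative.

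The 3 members of smallest p in that difference were Rps27l, Rps28 and Rpl23. Rps27l had 0 counts in cortex control 1 h, so no fold is given. Rps28 had a difference of −2.78 on the log2 scale (SE 0.87, edgeR adjusted p = 1) and Rpl23, which faces the small subunit, of −2.09 (SE 0.66, edgeR adjusted p = 1). Rpl23 had 5.29 and 5.69 CPM in hippocampus at 6 h and 29.7 CPM in hippocampus at 1 h, against 12.1 and 13.7 CPM in cortex at 6 h and 16.1 CPM in cortex at 1 h. When the hippocampus conditioned 6 h sample was left out, 41 members passed as lower in edgeR, where 9.38% of rows did. That fit has 1 sample in each of hippocampus at 6 h (the control, the library that stood apart), hippocampus at 1 h and cortex at 1 h, so its only spread is that between the 2 cortex libraries at 6 h. Without hippocampus control 6 h instead, a fit with the same limit, 0 members passed, 48 of 81 had an unadjusted p under 0.05 in edgeR, and the median was −1.03.

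Conditioning gave no member that passed. In the comparison of conditioned with control samples, 0 of 80 members and 0 of 16378 rows passed in edgeR, with 0 members and 114 rows at an unadjusted p under 0.05. DESeq2 and limma-voom called 0 rows, with 151 and 89 rows at an unadjusted p under 0.05. The members' median log2 change was 0.01, and 39 of 80 were negative. That median turned on single samples: it was 0.25 without the conditioned 1 h pair, 0.18 without cortex control 6 h, −0.18 without hippocampus control 6 h and −0.18 without cortex conditioned 6 h, with 0 members passing and at most 4 at an unadjusted p under 0.05 in these edgeR fits. The smallest p belonged to Rps27a (mean 10.1 CPM in conditioned and 17.4 CPM in control samples, log2 change −0.63, SE 0.32), Rpl36a (−0.72, SE 0.43) and Rps12, a protein of the small subunit's beak (−0.89, SE 0.53), with an edgeR adjusted p of 1 each. At 6 h, conditioned over control libraries gave a median log2 ratio of 0.54 in hippocampus and 0.17 in cortex, ratios of single libraries with no test. The medians over all rows were 0.008 and 0.011. The hippocampus ratio is taken over the control 6 h library that stood apart. Because the conditioned 1 h libraries could not be told apart, training at 1 h was not compared within a tissue.

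Between hippocampus and cortex no member passed. In a fit without the conditioned 1 h pair, 0 of 79 members passed in edgeR, DESeq2 or limma-voom, where 2% of 16123 rows passed as lower and 1.72% as higher in edgeR. The median was −0.15, and 1 member, Rps10, had an unadjusted p under 0.05 (log2 difference −0.92, SE 0.42, edgeR adjusted p = 0.337). Next stood Rpl4 (0.61, SE 0.34, edgeR adjusted p = 0.495) and Rpl24, of a bridge between the subunits (−0.69, SE 0.39, edgeR adjusted p = 0.497). The median turned on the samples: it was −0.69 without the hippocampus control 1 h sample, −0.68 without cortex control 1 h and 0.16 without cortex control 6 h, and 0.15 without hippocampus control 6 h.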

How the data were processed

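Per the labels' protocols, polyribosome-associated RNA was isolated with Trizol, depleted of ribosomal RNA, reverse transcribed from hexamer and poly A primers, amplified by SPIA and amplified again by PCR. The values are raw counts of reads for each RefSeq transcript, in 1 table that the authors deposited without normalization. The submitters' processing notes name CASAVA 1.7, TopHat 1.3.1, edgeR 2.612, limma 3.12.3 and mm9, with no role or order. The sources used here do not state the counting program, its use of strand or how it treated reads shared by near-identical genes. All 8 columns were matched to samples by name.

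Symbols came from RefSeq and GENCODE tables of GRCm38, which matched 98.1% of 27304 identifiers, and no mm9 coordinates were used. Sequences are from RefSeq (GRCm38.p6), credited by symbol; sequences of Rpl17 and Rps14 are not shown. Single-gene values of some genes are not reported here. Rows were tested mainly by quasi-likelihood in edgeR 4.0.16 under R 4.3.3 (robust, TMM factors, default low-count filter, Benjamini-Hochberg adjustment at 0.05) over all rows, on 7 samples for time, with 5 residual degrees of freedom. Training was fitted with time as a covariate, with 4 residual degrees of freedom. Tissue and the difference of the time change between tissues were fitted without the conditioned 1 h pair, each with 2 residual degrees of freedom. The time fit left tissue and training in the spread, and the training fit left tissue in it. Training was also left in the spread of the fit for the difference of the time change. Whether samples are separate animals is not given. The p-values thus measure the spread between these samples, which holds these differences and may otherwise be technical. DESeq2 1.42.0, limma-voom (limma 3.58.1), other factors, other filters, composition offsets and left-out samples were alternatives. Ratios of single libraries used a prior count of 2. On simulated counts the time test recovered 79% of rows changed by 1 on the log2 scale and 100% of those changed by 2, over 15841 rows. The test of the difference of the time change recovered 3% and 56%, over 16468 rows. Only rows above a set minimum of mean counts were changed, so the recovery does not cover members with few counts. The simulated counts had the same fixed spread in every row, with no tissue difference, composition trend or library that stood apart. Recovery in the real libraries can therefore be lower and was not measured. Members, gene lists and the rule for the 33 named members (fixed core genes, paralogs, the largest falls and highest changes by role, and the smallest p in other comparisons) were chosen with earlier results of these data known.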

Additional observations from a re-analysis of the deposited data

Results flagged for a closer look

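Rpl4, a protein of the large subunit that lines the exit tunnel, had 354 CPM in the hippocampus control 6 h sample, far above the other 3 control samples, which ranged from 105 to 143.6 CPM. The gap to the nearest control was 0.845 of the group's whole range, above Dixon's 95% critical value for 4 samples. The control samples differ in tissue and time, whereas the rule takes them as replicates of 1 condition. Among true replicates chance flags about 1 in 20 groups, and 58 groups of named members were examined. The same sample was the lowest of the controls for the stalk genes.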

How the results depend on the processing

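The labels give no replicate numbers, so no fit had a replicate as a block. For members that fell at 6 h against 1 h, 35 in the reported fit, other factors, filters, summed rows and tools gave 34 to 49. Offsets for transcript GC content and length gave 2 with a median of −0.50. Offsets for coding GC content and length, added after the data were seen, gave 17. Without the conditioned 1 h pair but with tissue as a covariate, 16 fell, against 0 with time alone. Tissue as a numeric covariate on the 7 samples, with the pair set midway, gave 43. The fit of all 8 libraries blocked on tissue by training gave 41 that fell and 1 that rose. Leaving out 1 sample gave 0 to 43 that fell. Leaving out the conditioned pair and hippocampus control 6 h together, also added later, gave 33. For tissue, leaving out 1 sample gave a median of −0.69 to 0.16. For the difference of the time change between tissues, leaving out a 6 h sample, added later, gave 0 to 41 members.

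Signs changed for 5 members, none of which had passed. Rpl36al was at −0.0024 with DESeq2 size factors, −0.11 with upper-quartile factors, −0.0035 in DESeq2, −0.072 with the stricter filter, −0.042 without the conditioned 1 h pair, −0.077 without the pair and hippocampus control 6 h, and −0.078 to 0.22 over left-out samples. Rps6 was at −0.085 with upper-quartile factors, −0.032 with the stricter filter, −0.072 without the conditioned pair, −0.0062 with coding offsets, −0.30 without the pair and hippocampus control 6 h, and −0.19 to 0.16 over left-out samples. Rpl5 was at −0.34 with transcript offsets and −0.24 with coding offsets. Rpl11 was at 0.0078 and Rps24 at 0.14 with transcript offsets, and Rps24 at −0.22 to 0.072 over left-out samples. The cause was not tested. Low counts in single members and 3 samples at 1 h limit what could be resolved.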
